A study of Rattus norvegicus with 44 samples.

Results

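The genes of brain endothelium and the blood-brain barrier described here were chosen by symbol, 10 in all, namely Cldn5, Itm2a, Egfl7, Kdr, Flt1, Pecam1, Slc2a1, Mfsd2a, Abcb1a and Emcn. Of the 10 listed, 8 had a row under that symbol in both deposited tables, among 20003 rows for CA1 and 20050 rows for the dentate gyrus (DG). Pecam1 and Abcb1a were not analysed here. Abcb1a has a near-identical paralog, Abcb1b, which is not a member, and reads of the pair may not be told apart. The data were polyadenylated RNA of 44 libraries from 22 male rats, and CA1 and DG were both taken from 1 hippocampus of each rat. Young LPS rats (n = 8, 5 to 7 months old) were given lipopolysaccharide (LPS, an endotoxin of bacteria), 1 mg per kg each time. Aged vehicle rats (n = 6, 14 to 16 months old) and young vehicle rats (n = 8, 5 to 7 months old) received saline. All rats were injected into the peritoneum once a week for 7 weeks, and tissue was frozen after the seventh injection, at 48 hours. The rats were not aged beyond 16 months, and no aged rat received LPS, so LPS was measured at 1 age only.

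Endothelial cells of brain capillaries are sealed by tight junctions, carry dedicated transporters for glucose and lipids, and keep transcytosis low, and these features together form the blood-brain barrier. The cells are wrapped by pericytes, which are mural cells, and by the end-feet of astrocytes, and their number and identity depend on vascular endothelial growth factor (VEGF) and on Wnt and norrin signals. Peripheral endotoxin acts on the brain partly through these cells, since they face the blood. In bulk tissue, fewer endothelial cells and less RNA per endothelial cell cannot be told apart.

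Among the members, Cldn5 encodes claudin-5, the main tight-junction claudin of brain endothelium. Slc2a1 encodes GLUT1, the glucose transporter of the barrier, which astrocytes also make. Mfsd2a encodes a lysolipid transporter that carries docosahexaenoic acid and restrains transcytosis. Kdr and Flt1 encode the VEGF receptors VEGFR2 and VEGFR1. Egfl7 encodes a secreted protein of the endothelial matrix, Emcn encodes the surface sialomucin endomucin, and Itm2a encodes a membrane protein enriched in brain endothelium.

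Promoters were available from RefSeq (build GRCr8, 250 bases before to 50 bases after each annotated start) for 8 of the 10 listed genes, in 9 windows, since Egfl7 has 2 starts. The reads had been aligned to build rn6, so these coordinates apply to GRCr8 only. Egfl7, Cldn5 and Flt1 are shown because they varied together over libraries in DG, and Emcn because its correlation with Cldn5 and Egfl7 had a different sign in CA1 and in DG. Capitals mark every match, on either strand, of the ETS core AGGAAG (reverse CTTCCT) and of the GC box GGGCGG (reverse CCGCCC).
Egfl7 first start, chr3:29805381-29805680, plus strand: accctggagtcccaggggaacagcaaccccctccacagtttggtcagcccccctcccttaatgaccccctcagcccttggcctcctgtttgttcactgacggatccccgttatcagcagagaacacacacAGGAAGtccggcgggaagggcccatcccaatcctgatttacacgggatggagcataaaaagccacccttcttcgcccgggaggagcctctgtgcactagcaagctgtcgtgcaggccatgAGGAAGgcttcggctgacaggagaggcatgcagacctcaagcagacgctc
Egfl7 second start, chr3:29808051-29808350, plus strand: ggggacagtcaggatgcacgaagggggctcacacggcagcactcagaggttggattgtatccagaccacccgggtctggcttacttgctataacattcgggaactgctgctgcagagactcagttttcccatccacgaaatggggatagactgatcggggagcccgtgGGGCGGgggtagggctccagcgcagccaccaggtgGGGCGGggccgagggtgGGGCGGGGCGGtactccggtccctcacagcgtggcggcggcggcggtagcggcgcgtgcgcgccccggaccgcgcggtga
Cldn5, chr11:95718549-95718848, minus strand: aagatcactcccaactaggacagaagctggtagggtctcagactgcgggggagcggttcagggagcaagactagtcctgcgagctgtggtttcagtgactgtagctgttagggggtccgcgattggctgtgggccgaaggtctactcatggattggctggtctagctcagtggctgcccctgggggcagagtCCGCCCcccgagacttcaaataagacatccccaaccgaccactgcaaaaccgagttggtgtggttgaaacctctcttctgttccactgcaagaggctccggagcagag
Flt1, chr12:12333180-12333479, plus strand: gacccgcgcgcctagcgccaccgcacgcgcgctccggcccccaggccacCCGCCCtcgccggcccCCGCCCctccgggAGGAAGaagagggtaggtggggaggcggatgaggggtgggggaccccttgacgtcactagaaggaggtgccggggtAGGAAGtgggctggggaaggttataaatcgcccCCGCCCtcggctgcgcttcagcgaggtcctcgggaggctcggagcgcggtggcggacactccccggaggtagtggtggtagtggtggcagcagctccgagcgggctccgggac
Emcn, chr2:228564289-228564588, plus strand: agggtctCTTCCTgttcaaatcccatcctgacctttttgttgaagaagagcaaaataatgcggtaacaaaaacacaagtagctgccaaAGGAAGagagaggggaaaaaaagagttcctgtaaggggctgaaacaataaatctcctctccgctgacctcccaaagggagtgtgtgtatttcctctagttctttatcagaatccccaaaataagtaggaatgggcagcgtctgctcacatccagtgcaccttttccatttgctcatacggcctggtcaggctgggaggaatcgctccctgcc
The starts of Egfl7 differed in these letters. Its first window held the ETS core at -120 and at 1, counted from the start, and no GC box, whereas its second held 4 GC boxes, at -82, -47, -30 and -25, of which the last 2 share a base, and no ETS core. Emcn, like the first start of Egfl7, held 2 ETS cores and no GC box. Cldn5 held 1 GC box, at -58, and Flt1 held both motifs. Over the 9 windows, 3 held the ETS core, against 34.5% of all 33469 promoters, and 7 held the GC box, against 33.1%. The HIF letters ACGTG occurred in 1 window, that of Slc2a1, against 19.3% of all promoters, and the SOX letters ACAAT in 2, against 33.7%. The FOX letters TGTTTAC, in 3.78% of all promoters, and the TCF/LEF letters CTTTGAT, in 3.63%, were in none of the 9 windows. Both strands were searched. A match is a string of letters and not a measured site, and where there is none, only these letters are missing from this window.

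The deposited values were read counts that the authors had normalized within each region, called normalized reads below. Depth, recovered from the steps between low values, was 12292344 to 18749733 reads for CA1 libraries, and DG libraries had 12130182 to 23519792. Summed CA1 pyramidal markers ran from 19850 to 51880 normalized reads in CA1 libraries and from 2041 to 14550 in DG libraries, while summed dentate granule markers ran from 7815 to 14810 in DG libraries and from 1857 to 8761 in CA1 libraries. The 2 tables were normalized separately, so these sums, and all levels, were tested only within a region. In DG, 3 libraries stood apart in the sum of 7 meningeal fibroblast markers. It was 1395 in young vehicle rat 2526, 1451 in young vehicle rat 2572 and 1241 in aged vehicle rat 2532. In the other DG libraries that sum was at most 371.4. In CA1 young vehicle rat 2526 again had the highest meningeal sum, at 2725, and a choroid plexus marker sum of 9457, where the next library had 996. Aged vehicle rat 2532 had the second highest meningeal sum, at 1868, but its CA1 library stood apart in other ways too. It had the fewest recovered reads of CA1, 12292344, and the highest CA1 pyramidal sum, 51880. Its sums of listed barrier transporter genes, 14600, and of listed VEGF and Tie genes, 9496, were also the highest in CA1. Rat 2572 had a meningeal sum of 1221 in CA1, but its mean log2 value over 11 tested meningeal markers was -0.193, below the region mean. Values without these rats, an alternative chosen after seeing the data, are given beside the members whose changes they move most.

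**Figure D1:**
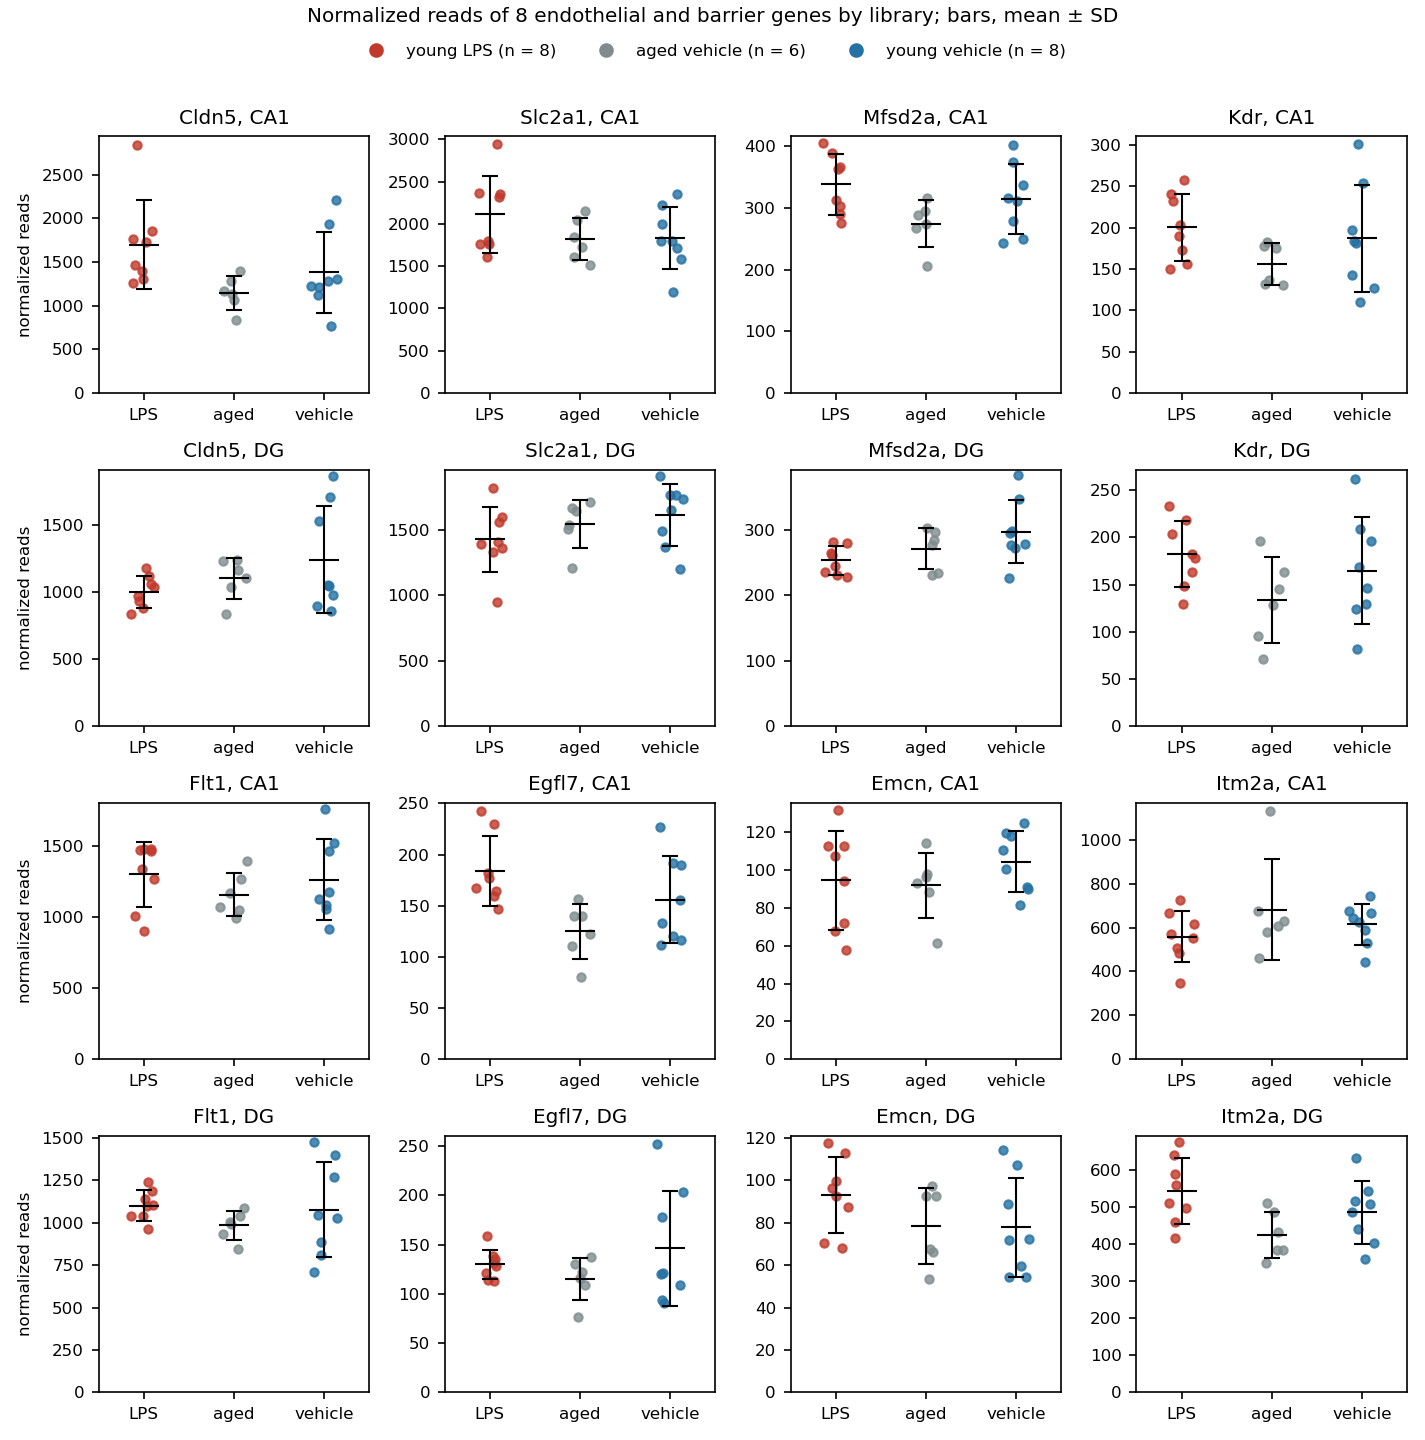
Normalized reads of the 8 measured members (vertical axes, from 0) in CA1 and DG, with 1 point a library for young LPS (n = 8), aged vehicle (n = 6) and young vehicle (n = 8), and bars for the mean ± SD. The groups overlap in each panel, and Egfl7 in CA1 has 8 of 8 young LPS libraries above the aged vehicle median.

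In CA1, 6 of 8 members had a higher fitted mean in young LPS than in young vehicle rats, but none passed the test. Changes are given as log2 differences of normalized reads plus 1, tested with limma over all genes of a region and called at a Benjamini-Hochberg adjusted p below 0.05. At that threshold limma called 0 of 8 members, against 0% of the 14915 genes tested, and at an unadjusted p below 0.05 it had 0 of 8, against 6.87%. edgeR and DESeq2 on recovered reads likewise called 0 members, with 0 at an unadjusted p below 0.05. Shares over all genes are given for limma only, here and below. The median change was 0.13 over the 8 members and 0.01 over all genes.

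The junction gene Cldn5 led the CA1 comparison with LPS. Cldn5 ran from 1262 to 2833 normalized reads in young LPS rats (median 1594) and from 769 to 2208 in young vehicle rats (median 1252). All 8 LPS libraries lay above the vehicle median, although vehicle rats 2523 and 2572 exceeded every LPS value but that of rat 2404, and the groups overlapped. The log2 change was 0.32 (SE 0.18, adjusted p = 0.654, limma). Egfl7 showed the same arrangement, from 146.6 to 242.5 normalized reads in young LPS rats (median 172.1) against 111.7 to 226.6 in young vehicle rats (median 144.4). Again 8 of 8 LPS libraries lay above the vehicle median, with a log2 change of 0.26 (SE 0.16, adjusted p = 0.654, limma). The change was 0.41 without vehicle rats 2526 and 2572, which were left out after seeing the data. Their Egfl7 values, 189.8 and 226.6, lay above the vehicle median, so leaving them out had to raise the change. The highest Cldn5, Egfl7, Slc2a1 and Mfsd2a values among LPS libraries all came from rat 2404, whose 5 blood-cell genes summed to 13140 normalized reads, the highest in CA1. The part of blood in these values was not tested.

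The transporters had smaller differences in CA1. Slc2a1 averaged 2114 ± 455 normalized reads in young LPS and 1832 ± 364 in young vehicle rats (SD, n = 8 each), a log2 change of 0.21. Mfsd2a averaged 338.2 ± 48.9 in young LPS and 314.2 ± 56.6 in young vehicle rats, a change of 0.11. The VEGF receptors differed by 0.15 (Kdr) and 0.05 (Flt1), and by 0.36 and 0.19 without vehicle rats 2526 and 2572. Those rats, left out after seeing the data, held the 2 highest vehicle values of both genes in CA1. Leaving them out therefore had to raise both changes. Emcn and Itm2a had the opposite sign, with changes of -0.18 and -0.15. The standard errors of these 6 genes were 0.12 to 0.18, so each change was within 2 standard errors of 0.

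Within number series, that is, rats whose numbers share the leading digits 24, 25 or 27, the CA1 pattern was not uniform. The labels do not say what the number series stand for. The median member change was 0.60 in series 24, which held 3 LPS rats and 1 vehicle rat, -0.13 in series 25 (4 LPS and 4 vehicle rats) and 0.07 in series 27 (1 LPS and 3 vehicle rats). For Cldn5 the corresponding differences were 1.29, -0.04 and 0.24. The 1 vehicle rat of series 24, 2410, had the lowest Cldn5, Egfl7 and Slc2a1 values of CA1 in its group.

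In DG, LPS gave a different order of members and again no call. limma called 0 of 8 members, against 0.0134% of the 14904 genes tested, and 1 of 8 had an unadjusted p below 0.05, against 7.53%. edgeR and DESeq2 called none, with 2 members each at an unadjusted p below 0.05. With 4 positive and 4 negative changes the members had a median of -0.006, and that of all genes was -0.004. The 3 barrier genes, Cldn5, Slc2a1 and Mfsd2a, all had negative changes.

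The gene with the smallest p was Mfsd2a. Its DG values ran from 227.1 to 282 normalized reads in young LPS rats (median 252.4) and from 225.8 to 384 in young vehicle rats (median 286.8). All 8 LPS libraries lay below the vehicle median, but vehicle rats 2523, 2526, 2728 and 2410 lay within or below the LPS range. The log2 change was -0.22 (SE 0.10, unadjusted p = 0.036, adjusted p = 0.637, limma). Cldn5 averaged 1001 ± 119 in young LPS and 1241 ± 398 in young vehicle rats, a change of -0.26 (SE 0.14, adjusted p = 0.693, limma). Vehicle rats 2572, 2526 and 2410 had the 3 highest DG values of Cldn5, at 1862, 1711 and 1532, above the LPS maximum of 1179. The other 5 vehicle libraries, at 854.9 to 1050, lay within the LPS range of 836.5 to 1179. Without rats 2526 and 2572 the change of Cldn5 was -0.06 (adjusted p = 0.901, limma, over a range of 0.458 to 0.904 across alternatives), while that of Mfsd2a was -0.24 and that of Slc2a1 -0.14.

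Slc2a1 in DG averaged 1429 normalized reads in young LPS rats (median 1401) and 1614 in young vehicle rats (median 1698), a change of -0.18 (SE 0.11). The remaining members were spread on both sides of 0. Kdr, Flt1, Itm2a and Emcn had changes of 0.20, 0.07, 0.16 and 0.29, and Egfl7 had -0.08. Egfl7 reached 251.5 in vehicle rat 2526, 203.7 in vehicle rat 2572 and 178.4 in vehicle rat 2410, above the LPS maximum of 158.3. Without rats 2526 and 2572, which carried high meningeal markers, the change of Egfl7 was 0.16 (adjusted p = 0.788, limma, over a range of 0.497 to 0.998 across alternatives). Within number series the median member change in DG was -0.15 in series 24, -0.10 in series 25 and 0.25 in series 27.

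**Figure D2:**
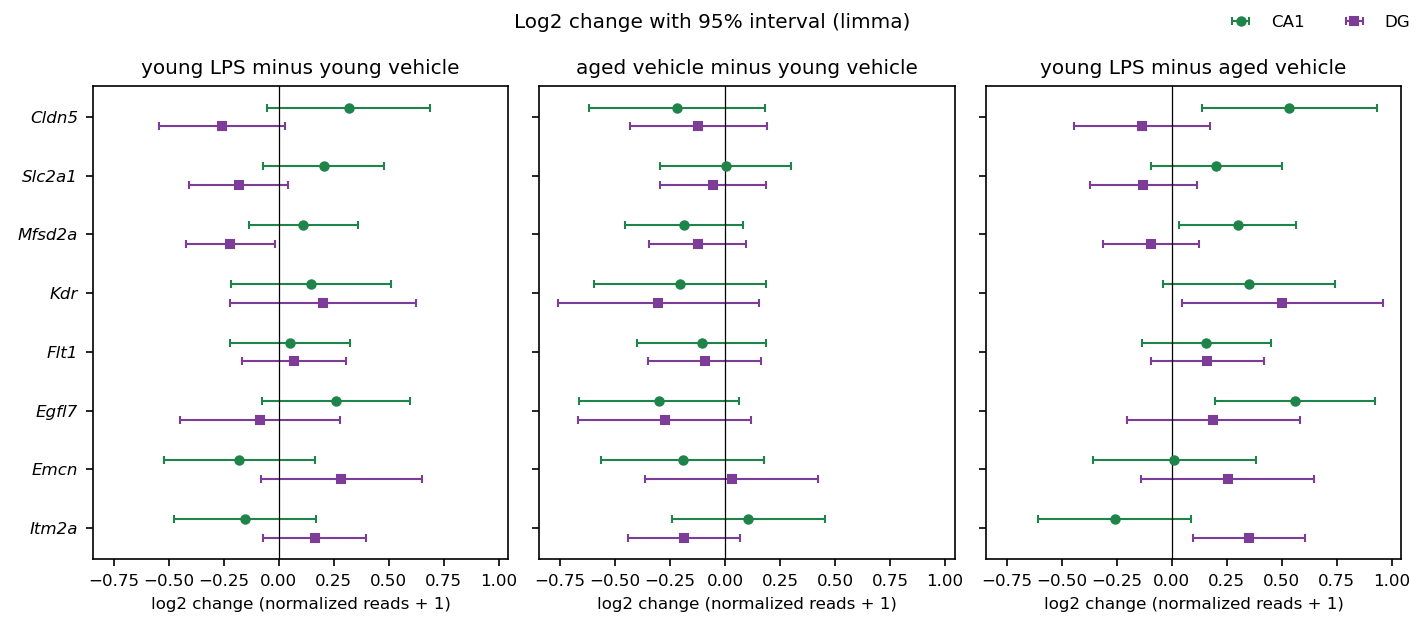
Log2 changes of the 8 members with 95% intervals from limma (horizontal axis) in CA1 (circles) and DG (squares), with the LPS change against young vehicle on the left, the age change in the middle and LPS against aged rats on the right. On the right, intervals of Cldn5, Mfsd2a and Egfl7 in CA1 and of Kdr and Itm2a in DG lie above 0, and on the left that of Mfsd2a in DG lies below 0.

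Age was compared between aged vehicle and young vehicle rats, the group of young vehicle rats being the same as in the LPS comparison. In CA1, 6 of 8 members had lower values in aged rats, with a median change of -0.19, against 0.003 over all genes. limma called 0 of 8, against 0.0134% of all genes, and had 0 of 8 at an unadjusted p below 0.05, against 12.6%. edgeR and DESeq2 also called 0 members and had 0 at that unadjusted threshold. In DG, 7 of 8 members had lower values in aged rats, with a median of -0.12, against 0.006 over all genes. There limma called 0 of 8, against 0.0134%, with 0 of 8 at an unadjusted p below 0.05, against 2.99%, and edgeR and DESeq2 called none, with 0 at the unadjusted threshold. Markers of the neighbouring subfield differed between the same groups. CA1 pyramidal markers in DG had a median change of 0.61 with age, 6 of 8 positive, with sums of 2202 to 14550 normalized reads in aged and 2061 to 12990 in young vehicle libraries. Dentate granule markers in CA1 had a median of -0.39 with age, 8 of 8 negative, and of -0.42 with LPS, 7 of 8 negative. Sums of these markers, over 10 with a row, were 2438 to 6045 in aged and 4488 to 7135 in young vehicle libraries. The part of both marker lists in the members' values was not tested beyond 1 alternative, a fit with the difference between these lists as a dissection covariate.

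No member's change with age passed the test, and several moved by over 1.5 times, or turned in sign, when 1 to 3 libraries were left out. Egfl7 in CA1 ran from 80.22 to 156.9 normalized reads in aged rats (median 131.1) and from 111.7 to 226.6 in young vehicle rats (median 144.4), a log2 change of -0.30 (SE 0.18, adjusted p = 0.415, limma). In DG Egfl7 averaged 115.1 ± 21.6 in aged rats (n = 6) and 146.1 ± 58.4 in young vehicle rats (n = 8), a change of -0.27. Both pairs of groups overlapped, and 5 of 6 aged CA1 libraries lay below the young median. Egfl7 in CA1 was -0.18 without aged rat 2532, and in DG it was -0.15 without young vehicle rat 2526, -0.16 without aged rat 2531, -0.03 without young vehicle rats 2526 and 2572, -0.09 without rats 2526, 2572 and 2532, and 0.048 with library weights. Kdr differed by -0.21 in CA1 and by -0.30 in DG, where its standard error was 0.22. In CA1 Kdr was -0.10 without young vehicle rat 2526, -0.13 without 2572, 0.051 without rats 2526, 2572 and 2532 and 0.062 with library weights, and in DG it was -0.14 without aged rat 2411 and -0.20 without young vehicle rat 2526. Cldn5 differed by -0.22 in CA1 and by -0.12 in DG, which was 0.073 without young vehicle rats 2526 and 2572, and Mfsd2a by -0.19 and by -0.13. Slc2a1 was close to 0 in both, at 0.003 and -0.05.

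Itm2a stood apart in the aged CA1 libraries. Its mean was 681.7 ± 231 normalized reads in aged rats and 615 ± 93.3 in young vehicle rats, and aged rat 2532 alone had 1130, where the next aged rat had 674.7. Without rat 2532 the log2 change of Itm2a was -0.05, in place of 0.11. In DG Itm2a was lower in 5 of 6 aged libraries than the young median, with a change of -0.19 (SE 0.12, adjusted p = 1.00, limma). In number series 24 and 25 the DG median over members was -0.41 and -0.24, with 8 of 8 members negative in each. In CA1 it was 0.21 in series 24 and -0.30 in series 25. Series 24 holds 1 young vehicle rat, 2410, whose DG member mean was 0.309 on the log2 scale relative to the region mean. Young vehicle rats of series 25 include 2526 and 2572, with the highest DG member means, 0.351 and 0.40. Members measured in the same libraries are not independent observations. Series 27 held no aged rats.

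Young LPS and aged vehicle rats were also compared directly. These groups differed in both LPS and age, so a difference between them cannot be credited to LPS or to age alone. In CA1, 7 of 8 members had higher values in young LPS rats, with a median change of 0.25, against 0.02 over all genes. Egfl7, higher in young LPS rats, was the 1 member of 8 called by limma, against 8.73% of all genes. At an unadjusted p below 0.05 limma had 3 of 8, against 35.8%. edgeR called 1 member and DESeq2 called 2, with 3 each at an unadjusted p below 0.05. The limma share of 1 in 8 is near the background of this comparison and is not a result about the members as a group. The edgeR and DESeq2 counts have no such background beside them and are not read as one either.

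Egfl7 ran from 146.6 to 242.5 normalized reads in young LPS rats (median 172.1) and from 80.22 to 156.9 in aged vehicle rats (median 131.1). All 8 LPS libraries lay above the aged median, and only aged rat 2411, at 156.9, reached into the LPS range, above the LPS rat 2573, at 146.6. The log2 change was 0.56 (SE 0.18, 95% interval 0.20 to 0.93, adjusted p = 0.0493, limma). Cldn5 ran from 1262 to 2833 normalized reads in young LPS rats and from 834.3 to 1399 in aged rats, again with 8 of 8 above the aged median. Its change of 0.54 (SE 0.19, adjusted p = 0.0635, limma) missed the threshold. Mfsd2a averaged 338.2 ± 48.9 in young LPS and 274.4 ± 37.7 in aged rats, a change of 0.30 (SE 0.13, adjusted p = 0.103, limma).

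The call of Egfl7 depended on single libraries. Without aged rat 2532, which had the lowest Egfl7 (80.22), Cldn5 and Mfsd2a values among aged CA1 libraries, the change of Egfl7 was 0.44 with an adjusted p of 0.134 in limma, and no gene of the whole table was called, in place of 1302. The CA1 library of rat 2532 also had the fewest recovered reads of the region, 12292344. The adjusted p also passed 0.05 without any 1 of LPS rats 2404, 2408, 2527, 2543 and 2717, aged rats 2415, 2420 and 2531 or young vehicle rats 2410, 2526, 2571, 2722, 2728 and 2731. Over all 35 alternatives it ran from 0.00972 to 0.134. In number series 24 and 25 the difference for Egfl7 was 0.45 and 0.88, and that for Cldn5 was 0.62 and 0.66.

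The other members differed less between LPS and aged rats in CA1. Kdr had a change of 0.35 (SE 0.19, adjusted p = 0.181, limma), Slc2a1 of 0.20, Flt1 of 0.16 and Emcn of 0.01. Itm2a had -0.26, and the high value of aged rat 2532 enters it. In DG, limma called 0 of 8 members, against 0.0134% of all genes, and 2 of 8 had an unadjusted p below 0.05, against 9.10%. edgeR and DESeq2 also called none, with 2 each at that threshold. Those 2 were Itm2a and Kdr. Itm2a in DG ran from 416.5 to 676.5 normalized reads in young LPS rats (median 536) and from 350 to 511.4 in aged rats (median 409.3), with 8 of 8 LPS libraries above the aged median and a change of 0.35 (SE 0.12, adjusted p = 0.388, limma). Kdr in DG averaged 182.4 ± 35.3 in young LPS and 133.3 ± 45.6 in aged rats, a change of 0.50 (SE 0.22, adjusted p = 0.498, limma). Cldn5 in DG, in contrast with its value in CA1, had -0.14.

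Whether LPS acted differently in the regions was tested as the LPS effect in CA1 minus that in DG, over 44 libraries, for the 14637 genes tested in both. Cldn5 had a difference of 0.58 (SE 0.24, 95% interval 0.10 to 1.05, unadjusted p = 0.0186, adjusted p = 0.349, limma). Leaving out 1 rat gave 0.412 to 0.749. Within number series 24 the LPS change of Cldn5 was 1.29 in CA1 and -0.65 in DG. It was -0.04 and -0.35 in series 25, and 0.24 and 0.13 in series 27. The 1 vehicle rat of series 24, 2410, had Cldn5 values of 769 in CA1 and 1532 in DG, and Slc2a1 values of 1197 and 1915. The transporters Slc2a1 and Mfsd2a had differences of 0.39 (adjusted p = 0.367, limma) and 0.33 (adjusted p = 0.372, limma). Emcn had -0.46 (SE 0.24, adjusted p = 0.40, limma) and Itm2a -0.32, both with the opposite sign. Egfl7 had 0.35, and Kdr and Flt1, at -0.05 and -0.02, were nearest to 0, with intervals of -0.62 to 0.51 and -0.38 to 0.34. In all, 3 of 8 members had an unadjusted p below 0.05, against 13% of all genes, and limma called 0 of 8, against 0%. This comparison was fitted with limma only. The age effect differed between regions by -0.22 for Emcn to 0.29 for Itm2a, with 0 of 8 called by limma, against 0%, and 0 of 8 at an unadjusted p below 0.05, against 4.93%.

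**Figure D3:**
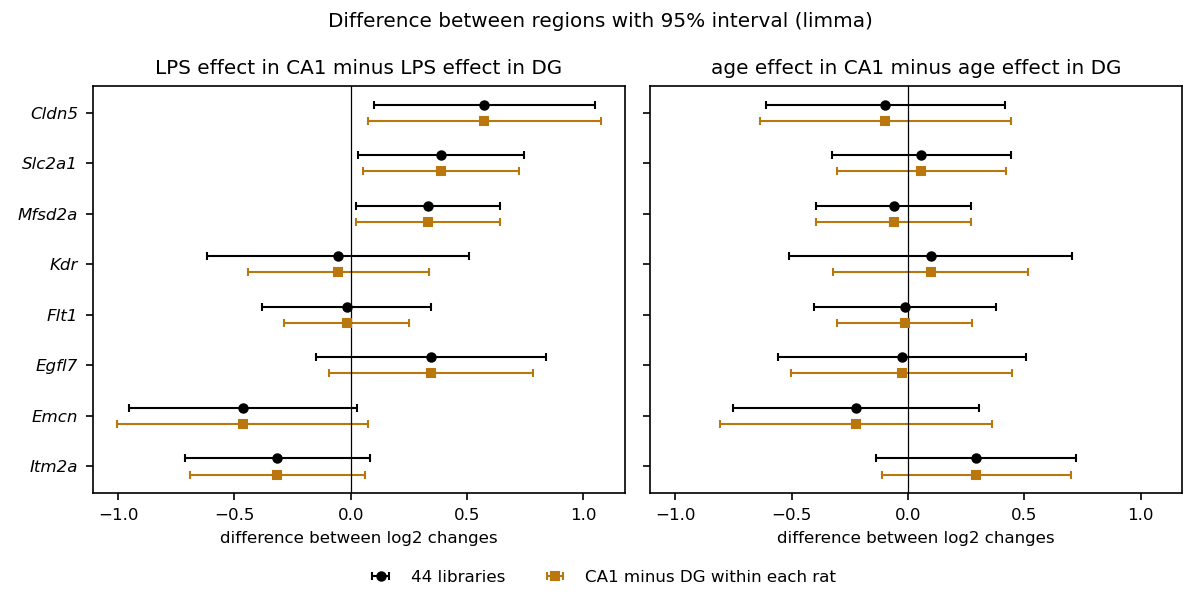
Difference between regions in the LPS effect (left) and the age effect (right) for each member, with 95% intervals (horizontal axis, difference between log2 changes), over 44 libraries (circles) and within rats (squares). Cldn5, Slc2a1 and Mfsd2a have LPS intervals above 0 in both fits.

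Over libraries, with group means removed, the members fell into sets. In CA1 the barrier genes varied together, with Pearson's r of 0.79 for Cldn5 and Mfsd2a, 0.73 for Cldn5 and Slc2a1 and 0.615 for Slc2a1 and Mfsd2a. Egfl7 went with Cldn5 (r = 0.77), and the receptors Kdr and Flt1 with each other (r = 0.65). Emcn and Itm2a also varied together (r = 0.68). Against the barrier genes Itm2a had r of -0.55 with Mfsd2a, which passed the test, and -0.47 with Cldn5 (adjusted permutation p = 0.08) and -0.07 with Slc2a1, which did not. Emcn had r of -0.36 with Cldn5, -0.28 with Slc2a1 and -0.37 with Mfsd2a, none of which passed (adjusted permutation p of 0.163 to 0.31). Of 28 pairs in CA1, 10 were positive and 1 was negative at an adjusted p below 0.05 (permutation test with 100000 resamples, two-sided, 22 libraries, adjusted over 56 pairs). Pairs of other genes were not counted in either region, so the counts do not set the members apart from other genes. For Cldn5 and Mfsd2a the adjusted permutation p was 0.00056, Spearman's rho was 0.83 with an adjusted permutation p of 0.00056, the smallest that the resampling can give after adjustment, and r was 0.73 without rats 2404 and 2523. For Itm2a and Mfsd2a the adjusted permutation p was 0.0271, with rho of -0.48 (adjusted permutation p = 0.068) and r of -0.43 without rats 2532 and 2543.

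In DG the sets were drawn differently. Emcn varied with Egfl7 (r = 0.73) and Cldn5 (r = 0.66), where in CA1 these values were -0.13 and -0.36, and Mfsd2a was apart from Cldn5 (r = 0.05). The pairs Cldn5 and Egfl7 (r = 0.76), Egfl7 and Flt1 (r = 0.74), Cldn5 and Flt1 (r = 0.73), Kdr and Flt1 (r = 0.72) and Cldn5 and Slc2a1 (r = 0.68) were positive. Of 28 pairs in DG, 8 were positive and 0 negative at an adjusted permutation p below 0.05, and 25 were above 0. The difference between regions in these correlations was not tested. The median r over pairs was 0.23 in CA1 and 0.41 in DG, and without rats 2526, 2572 and 2532, an alternative chosen after seeing the data, it was 0.25 and 0.34. Within number series 24 and 25 it was 0.35 and 0.24 in CA1 and 0.21 and 0.49 in DG. These libraries share normalization, and a correlation between genes of 1 library is not independent of its cell makeup.

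**Figure D4:**
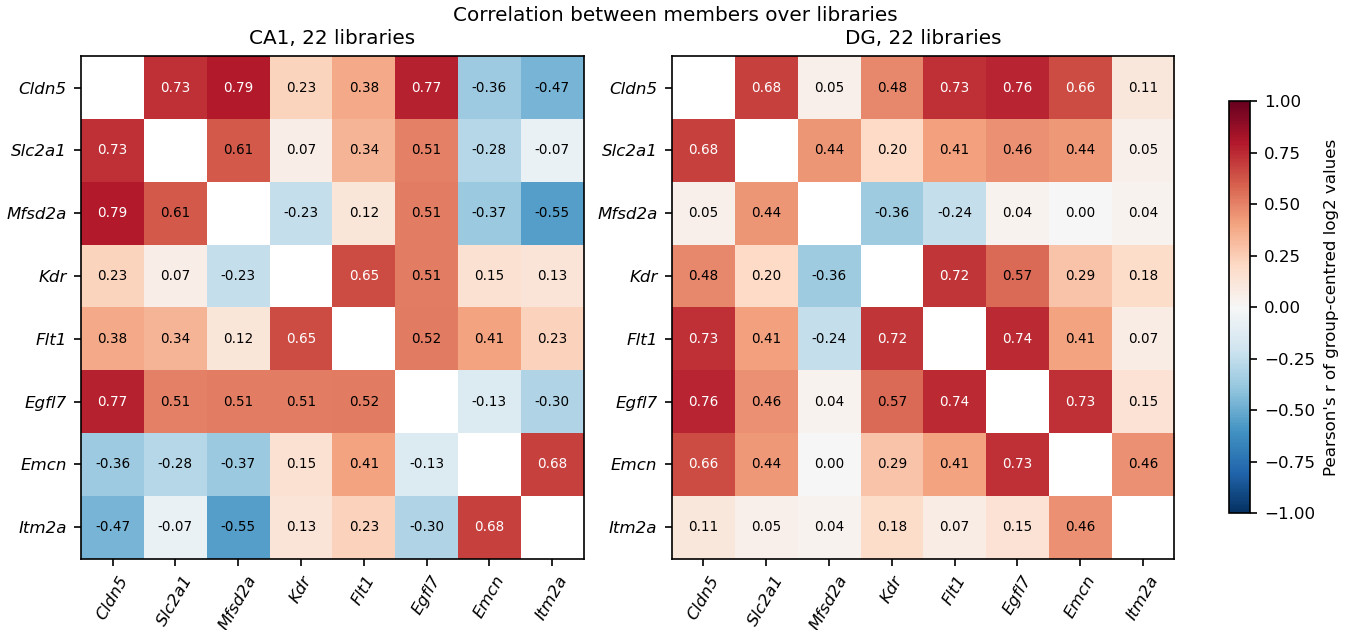
Pearson's r between members over 22 libraries of CA1 (left) and 22 of DG (right), from log2 values with group means removed, on a colour scale from -1 to 1. Cldn5, Slc2a1 and Mfsd2a form a positive block in CA1, with r of 0.615 to 0.79, and their values with Emcn and Itm2a run from -0.55 to -0.07.

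Across the 22 rats, the VEGF receptors were the 2 of 8 members whose CA1 and DG levels passed the test with Pearson's r. The share of all genes that would pass was not computed. Kdr in CA1 and in DG had r = 0.62 (adjusted permutation p = 0.0162) and rho = 0.55 (adjusted permutation p = 0.0728). Flt1 had r = 0.55 (adjusted permutation p = 0.0299) and rho = 0.47 (adjusted permutation p = 0.112). Leaving out the 2 rats farthest from the CA1 median gave 0.39 for Kdr (adjusted permutation p = 0.358, without 2731 and 2526) and 0.49 for Flt1 (adjusted permutation p = 0.234, without 2543 and 2572), so neither passed without those rats. Without rats 2526, 2572 and 2532 r was 0.66 for Kdr and 0.40 for Flt1. Within number series 24 and 25, r was 0.31 and 0.58 for Kdr and 0.10 and 0.64 for Flt1. The other 6 members had r from -0.24 (Emcn) to 0.28 (Egfl7), with Cldn5 at -0.19, and none of these 6 passed among the 8 relations tested.

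The mean of the members followed the mural cell markers closely in both regions. Over 22 libraries with group means removed, r was 0.87 with 13 mural markers in CA1 and 0.88 with 11 in DG, given as a description. It was 0.81 and 0.88 with genes of caveolae and fenestrae, so mural markers were not alone in this. In DG junction genes had 0.84, endothelial activation genes 0.82 and perivascular macrophage markers 0.76, against 0.43, 0.39 and 0.235 in CA1. The members' mean also had r of 0.76 and 0.78 with 19 other endothelial genes, 0.64 and 0.69 with astrocyte markers and 0.56 and 0.54 with blood-cell genes, in CA1 and DG. Without rats 2526, 2572 and 2532 the value with blood-cell genes was 0.50 in CA1 and 0.15 in DG. With meningeal fibroblast markers r was 0.24 in CA1 and 0.83 in DG, and 0.38 and 0.70 without rats 2526, 2572 and 2532. Rats 2572 and 2526 had the highest member means of DG, at 0.40 and 0.35 on the log2 scale relative to the region mean, and aged rat 2531 had the lowest, at -0.45. The genes most like the members' mean were Gper1 (r = 0.87), Lpar1, Sema3g, Vwf and Slc4a2 in CA1 and Serping1 (r = 0.90), Olfml2a, Bgn, Pltp and Bicc1 in DG.

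**Figure D5:**
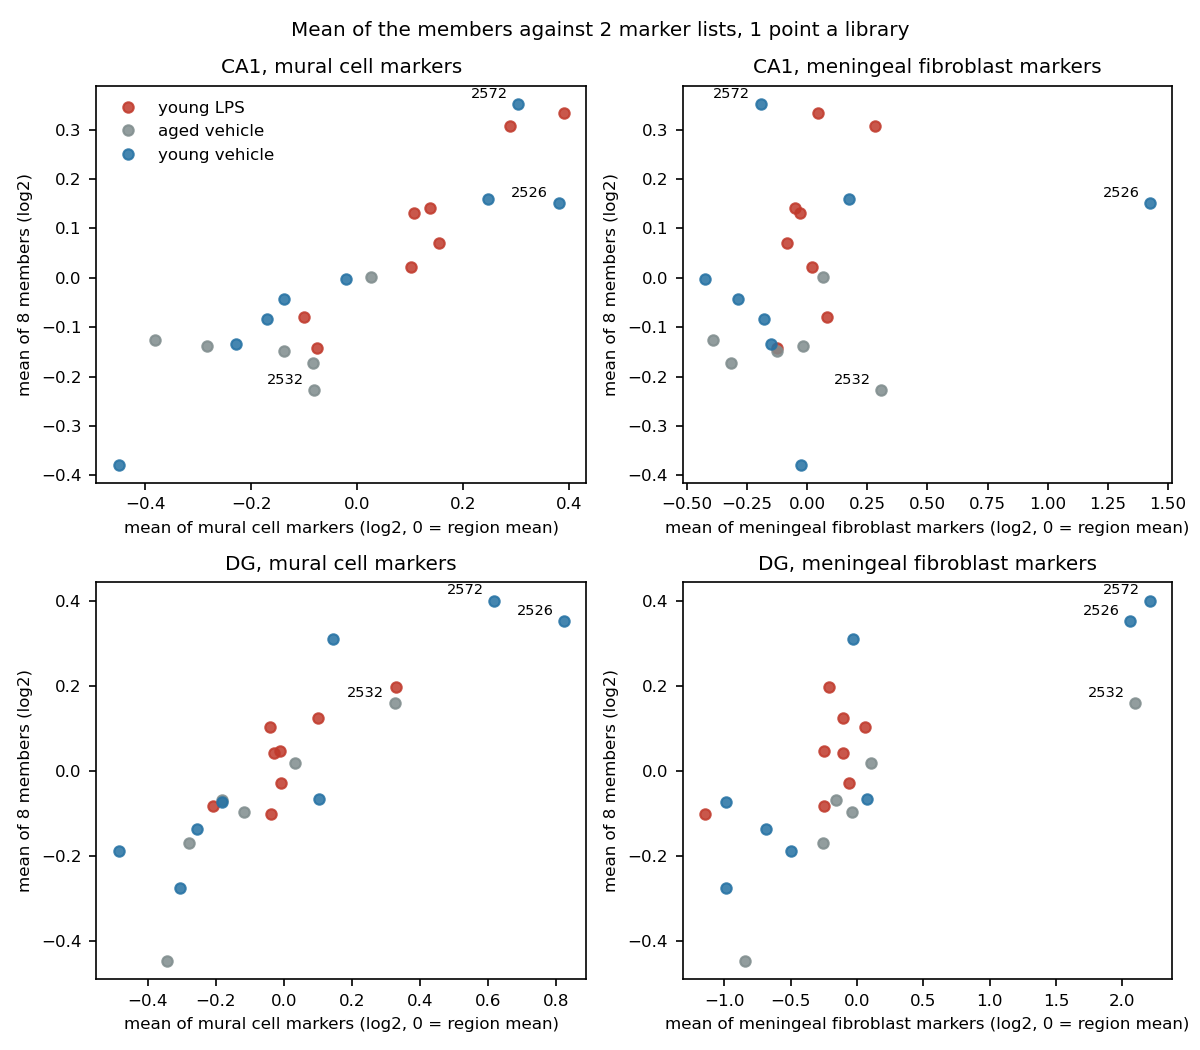
Mean of the 8 members against the mean of the mural cell markers (left) and meningeal fibroblast markers (right) in CA1 (top) and DG (bottom), as log2 values relative to the region mean, 1 point a library. In DG rats 2526, 2572 and 2532 lie far to the right in the meningeal panel, and members and mural markers are high in the same libraries in both regions.

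The median change of the mural markers had the same sign as that of the members in each comparison. For LPS against young vehicle in DG both were near 0, at -0.025 and -0.006. In CA1, 11 of 13 mural markers were higher in young LPS than in aged rats, with a median change of 0.31. Over all genes, 7759 of 14915 were higher, with a median of 0.02. Of the mural markers 1, Notch3, the receptor that maintains mural cells, was called, against 8.73% of all genes. Notch3 was at 553.3 ± 144 normalized reads in young LPS and 350.6 ± 71.8 in aged rats. Without aged rat 2532 no gene was called, Notch3 included. The summed level of the mural markers was 3722 to 5635 in young LPS and 3111 to 4158 in aged vehicle CA1 libraries. The 5 blood-cell genes were higher in LPS than in vehicle CA1, 5 of 5, with a median of 0.68, and their sum was 2858 to 13140 in LPS and 1247 to 11280 in vehicle libraries. In DG the meningeal markers had a median change of -0.47 for LPS against young vehicle, and their sum was 143.3 to 371.4 in LPS and 136.2 to 1451 in vehicle libraries. The part of these cells in the members' values was not tested.

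Genes of the same pathways outside the members were counted in 7 lists, with 83 genes tested in CA1 and 84 in DG. For young LPS against young vehicle limma called none, with 7 genes in CA1 and 7 in DG at an unadjusted p below 0.05, near the 6.87% and 7.53% of all genes. edgeR and DESeq2 called none either, with 5 and 8 such genes in CA1 and 8 each in DG. The smallest p in CA1 was that of Slc7a5, a large neutral amino acid transporter, at 1711 normalized reads in young LPS and 1319 in young vehicle rats (log2 change 0.37, adjusted p = 0.654, limma), with 8 of 8 LPS libraries above the vehicle median. The leading genes of the other lists in CA1 had changes of 0.28 (Cdh5, VE-cadherin), 0.36 (Adgra2, a Wnt7 co-receptor), 0.31 (Nos3, endothelial nitric oxide synthase), 0.24 (Pltp), 0.19 (Vegfb, a ligand of Flt1) and -0.27 (Cavin2). In DG the smallest p was that of Vegfa, the ligand of Kdr and Flt1, at 1797 in young LPS and 1389 in young vehicle rats (0.41, adjusted p = 0.515, limma), again with 8 of 8 LPS libraries above the vehicle median. The others in DG were Apcdd1, a Wnt inhibitor (-0.28), Tfrc, the transferrin receptor (0.31), the leukocyte adhesion molecule Icam1 (-0.46), Cldn12 (-0.18), Sox18 (-0.35) and Cav1 (-0.15).

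For aged against young vehicle limma called none of these genes, with 5 in CA1 and 2 in DG at an unadjusted p below 0.05, shares that lay below the 12.6% and 2.99% of all genes. edgeR and DESeq2 called none, with 9 and 10 such genes in CA1 and 3 each in DG. Marveld2, the tricellular junction protein tricellulin, was below the young median in all 6 aged rats in both regions, with changes of -0.53 in CA1 (adjusted p = 0.393, limma) and -0.52 in DG (adjusted p = 1.00, limma). In CA1 the other leading genes were Bsg, or basigin (-0.43), Cav2 (0.57), the Tie2 ligand Angpt1 (0.67), the norrin receptor Fzd4 (0.29), Abcg2 (0.31) and endothelin-1, Edn1 (0.41). In DG they were Apcdd1 (-0.26), Ptprb (-0.34), Icam1 (-0.41), Slc7a5 (0.14), Nrp2 (-0.15) and Cavin1 (-0.47).

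For young LPS against aged rats in CA1, limma called 2 of the 83 genes as higher in young LPS rats and 3 as lower. At an unadjusted p below 0.05, 17 were higher and 10 lower. Both shares lay below the 8.73% and 35.8% of all genes and are not a result about these lists. edgeR called 2 up and 4 down and DESeq2 5 up and 6 down. Shares over all genes are not set beside these counts, so they are not read as a result about the lists either. On the log2 scale Tie1, an angiopoietin co-receptor, was higher by 0.52 in young LPS rats (adjusted p = 0.0499, limma) and Cavin3, a caveolar coat protein, by 0.85. The junction genes Tjp1, which encodes ZO-1, and Jam2 were lower by 0.37 and 0.33, and the efflux transporter Abcg2 by 0.59. Each of these, like Cavin3, had an adjusted p of 0.049 in limma. Abcg2 averaged 115.2 ± 14.0 normalized reads in young LPS and 176.6 ± 44.2 in aged rats. Its values ran from 95.2 to 131.8 in young LPS and from 138.8 to 258.2 in aged rats. Not called, but leading their lists, were Nos3 (0.47), Bsg (0.45) and Fzd4 (-0.37), with adjusted p of 0.0535 to 0.0847 in limma. Without aged rat 2532, which had the highest Abcg2, Jam2 and Tjp1 and the lowest Tie1 and Cavin3 among aged libraries, limma called none of the 83, with 11 at an unadjusted p below 0.05.

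In DG limma called none of the 84 genes for young LPS against aged rats, with 8 at an unadjusted p below 0.05, near the 9.10% of all genes. edgeR called none and DESeq2 called 1, each with 8 at the unadjusted threshold. Tfrc had the smallest p, at 1361 normalized reads in young LPS and 976.1 in aged rats (log2 change 0.47, adjusted p = 0.222, limma), with 8 of 8 LPS libraries above the aged median. Ndp, which encodes norrin, was at 7.41 in young LPS and 33.5 in aged rats (-3.34, adjusted p = 0.27, limma). The LPS mean lies below the filter value of 10, so the size of this change rests on values near the floor. Vegfa (0.31), Marveld2 (0.50), Ptprb (0.28), Cav1 (-0.20) and Ch25h (-0.44) led the other lists.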

How the data were processed

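The authors deposited 1 table of normalized gene values per region, a signal with no unit, made with STAR, Partek and DESeq2 on build rn6, per the submitters' processing notes, in which no versions are given. For the gene annotation and the strand setting, nothing is stated in the labels. In each library the deposited values were whole multiples of 1 step (0.818 to 1.459 in CA1, 0.6589 to 1.32 in DG), and 99.08% and 99.973% of values came out as whole reads within 0.1. Groups and rat numbers came from the labels.

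Genes reaching 10 normalized reads in 6 or more libraries were tested with limma 3.58.1 (R 4.3.3, trend and robust) on log2(value + 1), which understates changes of low genes. The 3 groups of a region entered 1 fit, and p-values were Benjamini-Hochberg adjusted over all genes. edgeR 4.0.16 and DESeq2 1.42.0 on recovered reads were alternatives. Correlations used 100000 permutations (Python 3.11.15, numpy 2.4.6, pandas 2.3.3, matplotlib 3.10.9). The models were tested on simulated data. No 2 libraries of a group agreed within sampling noise.

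CA1 and DG of a rat came from the same hippocampus, per the labels, so the rat number pairs them. Over 14637 genes the median correlation of a rat's deviations was 0.051, and it was above 0.1 in 8 of 22 rats. The CA1 library correlated best with the DG library of the same rat in only 1 of 22 rats. The region difference was fitted without the block, and within rats as an alternative. Named were all members, from each pathway list and comparison up to 3 called genes or else the 1 with the smallest p and the 5 genes most like the members' mean. Members and lists were chosen with earlier results of these data known.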

Additional observations from a re-analysis of the deposited data

Results flagged for a closer look

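In CA1, the Cldn5 value of young LPS rat 2404 stood apart from its group, at 2830 normalized reads where the nearest LPS library had 1850, a gap of 0.626 of the group's range. The Itm2a value of aged vehicle rat 2532 stood apart in CA1 as well, at 1130 where the nearest aged library had 675, a gap of 0.683 of the range. These were 2 of 48 groups of a gene, region and condition examined by Dixon's criterion, and chance alone marks about 1 in 20 groups.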

How the results depend on the processing

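Of 2294 alternative values, 2169 kept their direction and their side of the threshold (or moved by less than the replicate spread), 65 reversed, 38 lost and 12 gained a call, and 10 moved. Comparisons other than LPS against aged rats in CA1 had 0 members called under every alternative. There the count was 0 with no filter on low values, with only the 2 groups compared and without rats 2526, 2572 and 2532, it was 2 with library weights and with DESeq2, and leaving out 1 library gave 0 to 2. In the same comparison leaving out 1 library gave 0.442 to 0.633 for Egfl7 and 0.424 to 0.597 for Cldn5. Causes were not tested.

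The CA1 and DG samples are paired by rat. With the replicate block the region difference in the LPS effect was 0.575 for Cldn5 (adjusted p = 0.348, limma), and the block changed no call.

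These log2 changes reversed. For LPS against vehicle in CA1, Flt1 was -0.066 with the dissection covariate (mean of CA1 pyramidal minus dentate granule markers) and -0.009 to 0.125 leaving out 1 library. For age in CA1, library weights gave -0.054 for Itm2a, 0.062 for Kdr, 0.087 for Flt1 and -0.075 for Slc2a1. The dissection covariate gave -0.083 for Itm2a and -0.023 for Slc2a1, and edgeR and DESeq2 gave -0.010 and -0.011 for Slc2a1. Without rats 2526, 2572 and 2532 Kdr was 0.051 and Flt1 0.055, and without 2526 and 2572 they were 0.006 and 0.028. Leaving out 1 library gave -0.051 to 0.207 for Itm2a and -0.081 to 0.058 for Slc2a1. For LPS against aged in CA1, Emcn was -0.044 with a number series term and -0.097 to 0.107 leaving out 1 library.

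For LPS in DG, Egfl7 was 0.245 with library weights, 0.156 without the 3 or the 2 rats, and -0.168 to 0.041 leaving out 1 library, and Flt1 was -0.015 with a number series term and -0.009 to 0.141. For age in DG, library weights gave 0.055 for Cldn5, 0.048 for Egfl7 and 0.031 for Flt1. Without the 3 rats Cldn5 was 0.037 and Flt1 0.031, and without the 2 they were 0.073 and 0.060. Emcn was -0.154 with a number series term, -0.097 with the dissection covariate and -0.038 to 0.131 leaving out 1 library, and Slc2a1 was -0.112 to 0.015. For the region difference in the LPS effect, Kdr was 0.014 without the 3 rats and -0.159 to 0.003 leaving out 1 rat, and Flt1 was 0.018 with the series term and replicate block and -0.091 to 0.042. Emcn in the age effect was 0.103 with that term and block.

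Correlations between CA1 and DG without the 2 rats farthest from the CA1 median were 0.024 for Cldn5, -0.079 for Itm2a, 0.39 for Kdr and 0.485 for Flt1. Within number series 24 (chosen after seeing the data, as was series 25) they were -0.704 for Cldn5, -0.725 for Egfl7, 0.10 for Flt1 and -0.644 for Slc2a1, and within series 25 they were -0.419 for Mfsd2a and 0.55 for Slc2a1. The members' mean had r of -0.045 with perivascular macrophage markers in CA1 without the 3 rats and -0.265 in series 24, against 0.235 over all libraries. Group sizes of 6 to 8 and sequencing depth limit how small a change could be called, so a gene not called is not shown to be unchanged.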
